A study of Mus musculus with 42 samples.

Results

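Males of the C57BL/6J strain received vehicle, 2.5 mg/kg/day (low) or 25 mg/kg/day (high) of DEHP for 67 days and were then mated with females that had not been exposed. DEHP is a phthalate plasticizer. The results here compare both doses, pooled as 1 exposed group of 6 libraries (Low1 to Low3 and High1 to High3), with the 3 vehicle libraries (Control1 to Control3). The members are all 9 methylation libraries, of 42 samples in the labels, and all 141251 tiles of 100 bp in the methylation table. No measured value was used to choose them. The labels list reduced representation bisulfite sequencing (RRBS) of 12 sperm, 9 embryo and 9 extra-embryo samples. The sperm came from wild-type males with a labelled age of 14 weeks. The embryos and extra-embryonic tissues were wild-type males of E7.5, labelled C57BL/6 * DBA/2J, the stage at which the germ layers form. The columns are named by treatment and number alone, and neither they nor the labels say which tissue was measured. Nothing in the labels says that the libraries of a group came from separate fathers or litters, so the p-values measure only the spread between these libraries.

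In mammals a methyl group is added to cytosines that are followed by a guanine (CpG). RRBS reads CpG-rich fragments, which include many gene starts. Most CpG-rich gene starts are unmethylated, gene bodies and the sequence between genes are largely methylated, and imprinted control regions carry methylation on the copy from 1 parent only. Methylation of the germ cells is largely erased after fertilization and laid down again around implantation, while imprints persist. A percent methylation is the share of methylated cytosine calls in a tile. In bulk material a different mix of cells and a different methylation within cells cannot be told apart.

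Sequences are shown for the tiles described below that lie whole inside a promoter window of RefSeq (GRCm38.p6, 250 bases before to 50 after a gene start), because they let the reader see which CpGs a percentage averages. CpGs are in capitals and each sequence is written 5′ to 3′ on the strand of the named gene. Tiles lying in such windows (10634) held a median of 9 CpGs, with quartiles of 6 and 13. The tile at the start of Slc35e1 (chr8:72492601-72492700, minus strand, 14 CpGs) was lower in the exposed group. So were the tiles at Hoxd12 (chr2:74674801-74674900, plus strand, 6 CpGs), Hormad2 (chr11:4441101-4441200, minus strand, 3 CpGs) and Wdr93, whose start neighbours that of Pex11a (chr7:79742901-79743000, plus strand, 9 CpGs). The tile at Inpp5f (chr7:128611301-128611400, plus strand, 4 CpGs) was higher.
Slc35e1: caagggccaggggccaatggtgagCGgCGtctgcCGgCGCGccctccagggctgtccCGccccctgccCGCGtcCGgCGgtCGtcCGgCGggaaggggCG
Hoxd12: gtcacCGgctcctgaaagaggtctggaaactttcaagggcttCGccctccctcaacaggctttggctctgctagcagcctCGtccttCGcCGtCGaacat
Hormad2: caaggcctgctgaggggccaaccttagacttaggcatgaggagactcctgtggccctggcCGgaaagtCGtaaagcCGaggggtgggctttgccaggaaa
Wdr93 and Pex11a: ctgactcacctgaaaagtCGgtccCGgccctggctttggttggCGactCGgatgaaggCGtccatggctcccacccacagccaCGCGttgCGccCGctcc
Inpp5f: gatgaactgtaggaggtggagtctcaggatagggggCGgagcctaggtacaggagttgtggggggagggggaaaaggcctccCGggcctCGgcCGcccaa

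The promoter window of Cadps2 (chr6:23839372-23839671, minus strand) is shown because the tile that passed the test over all tiles lies 529.5 bp upstream of this gene's start, outside the window. The window holds 54 CpGs, where the median promoter window holds 7.
Cadps2: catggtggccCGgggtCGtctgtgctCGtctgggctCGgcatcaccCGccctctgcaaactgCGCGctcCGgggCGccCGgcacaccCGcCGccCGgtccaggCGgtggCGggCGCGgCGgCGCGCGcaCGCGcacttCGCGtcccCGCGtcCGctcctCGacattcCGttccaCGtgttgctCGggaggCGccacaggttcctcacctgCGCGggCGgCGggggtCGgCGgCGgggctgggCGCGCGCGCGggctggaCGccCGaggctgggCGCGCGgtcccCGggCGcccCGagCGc

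The tiles matched the mouse build GRCm38: all 10634 tiles inside promoter windows contained a CpG, against 75.5% to 86.1% of tiles moved by 100000 to 3000000 bp. Of the tiles, 53441 lay within 1000 bp of a listed gene start and had a mean methylation of 9.94%. A further 50755 lay in gene bodies (58.3%), 22047 outside genes (57.8%) and 15008 at an end of a gene without a listed start (19.95%). Starts of 21 of 28 genes with maternal germline imprints had tiles, and 14 of them lay between 25% and 75% in the mean of all libraries, with a median of 40.8%. For paternal germline imprints, starts of 3 of 5 genes had tiles, and 2 of them lay under 25%, with a median of 9.65%. Peg3, a paternally expressed imprinted gene, stood at 53.1% ± 4.93 (SD, n = 3) in controls and 55.9% ± 8.73 (SD, n = 6) in exposed libraries. The start of Elf5, a trophoblast regulator that is unmethylated in that lineage, stood at 43.6% ± 0.916 and 44.6% ± 5.84. It was the highest of 12 trophoblast regulator starts with tiles, of which 10 lay under 25%, with a median of 7.58%. Starts of 29 germline genes had a median of 57.8%. Those of 6 sperm protein genes ranged from 1.63% to 89.2%, with a median of 47.2%. Among these 6, the start of Prm1, a sperm protamine, stood at 27.3% ± 7.65 in controls and 25.7% ± 2.74 in exposed libraries. These values are given without assigning a tissue.

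Mean methylation over all tiles did not separate the groups. It was 35.2%, 35.7% and 36.1% in Control1 to Control3, 35.9%, 35.7% and 36.3% in Low1 to Low3 and 35.9%, 36.1% and 35.9% in High1 to High3. Control1 was the lowest library, and Control3 lay above 4 of the 6 exposed libraries. The exposed mean was 35.98% ± 0.213 (SD, n = 6) and the control mean 35.7% ± 0.411 (SD, n = 3), a difference of 0.319 percentage points (exact two-sided permutation test over 84 arrangements, p = 0.190; the smallest p possible is 0.0238). Without Control1 the difference was 0.111 points (exact permutation p = 0.571) and without Control3 it was 0.522 (p = 0.0714). With 2 controls 0.0714 is the smallest p that the test can give, and without Control3 both remaining controls lay below all exposed libraries. The median over tiles had the opposite direction, with 20.6% in exposed and 20.9% in control libraries. All 19 autosomes had a higher exposed mean, by 0.238 to 0.424 points, and by 0.0322 to 0.212 points without Control1. The autosomes were read in the same libraries, so they are not separate observations of a difference between the groups.

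Highly methylated tiles, and moderately methylated tiles away from gene starts, had a higher mean in the exposed group, and weakly methylated tiles a lower one, without passing the test. Tiles outside genes with a mean of 20% to 80% stood at 57.9%, 59.1% and 60.4% in the controls and between 59.6% and 60.9% in the exposed libraries. Their difference was 1.10 points (exact permutation p = 0.119, adjusted p = 0.317 over 10 classes), 0.470 points without Control1 and 1.72 without Control3. Tiles of the same range in gene bodies differed by 0.738 points, and by 0.262 without Control1 and 1.20 without Control3. Highly methylated tiles (over 80%) outside genes differed by 1.01 points (0.621 without Control1), those in gene bodies by 0.617 (0.308 without Control1 and 1.03 without Control3) and those at gene starts by 0.750 (0.569 without Control1). Weakly methylated tiles (under 20%) at gene starts differed by -0.0763 points, and by -0.00667 without Control2, -0.0163 without Low1 and -0.116 without Control1. Those in gene bodies differed by -0.186 points (-0.120 without Control1, -0.282 without Control3). Those outside genes differed by -0.134 points (-0.0340 without Control1, -0.0874 without Low1, -0.233 without Control3). The 2132 tiles of the X chromosome differed by 0.304 points, and by -0.476 without Control1. No class passed (lowest adjusted p = 0.317).

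Control1 stood apart in a graded way when tiles were sorted by their mean over the 9 libraries. Among 25498 tiles with a mean of 60% to 80% it stood at 68.7%, against 70.2% and 71.3% in the other controls and 70.5% to 72.1% in the exposed libraries. Among 11130 tiles with a mean of 20% to 40% the order was the reverse, with Control1 the highest library at 29.5%, against 28.4% and 28.9% in the other controls and 28.29% to 29.03% in the exposed libraries. Control1 thus lay nearer the middle of the scale in both ranges. The exposed-minus-control difference in the 60% to 80% range was 1.22 points with all libraries and 0.532 without Control1. In the 20% to 40% range it was -0.261 and 0.0203.

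**Figure D1:**
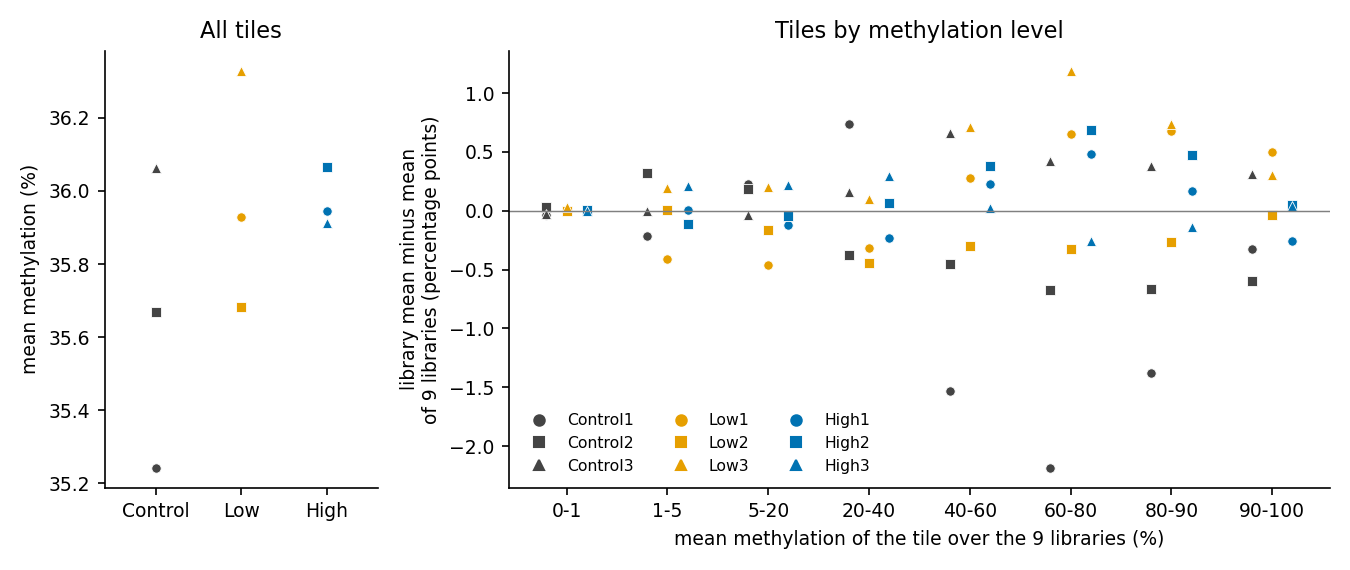
Left, mean methylation (%) over all tiles of each library by group; right, each library's mean in 8 ranges of tile methylation, as its difference in percentage points from the mean of the 9 libraries. Points are libraries; Control1 lies lowest from 40% to 90% and highest from 20% to 40%, where the other libraries overlap between groups.

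A single tile, upstream of Cadps2, passed the test over all tiles (1 of 141251, 0.000708%; limma, adjusted p = 0.0390). Cadps2 encodes a protein that primes dense-core vesicles for release. The tile (chr6:23839901-23840000, in the annotated span of the gene) stood at 16.5%, 15.8% and 16.5% in the controls. It stood at 4.11%, 5.04% and 4.21% in the low and at 3.27%, 5.65% and 2.27% in the high libraries. Its methylation fell from 16.3% ± 0.387 (SD, n = 3) to 4.09% ± 1.21 (SD, n = 6), a difference of -12.2 points (SE 0.80). All exposed libraries lay below all controls, and the high and low libraries overlapped. The 3 controls lay closer together than the 6 exposed libraries.

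The neighbouring tiles did not show this difference. The tile that abuts it on the far side from the gene start stood at 7.85% in controls and 7.39% in exposed libraries, with overlapping groups. The next tiles toward the start stood at 18.6% and 16.6%, and at 13.3% and 13.1%. Across the 5 tiles that follow, around the start, every library was at 2.58% or below. Of the 12 tiles in this stretch, no other had an unadjusted p under 0.05. The call depended on the settings. The adjusted p was 0.00618 with a mean-variance trend, 0.0490 with library weights and 0.0459 with robust variances. It was 0.251 on a log-ratio scale, 0.125 after centring, 0.0905 after quantile normalization and 0.172 with the doses as separate groups. With a replicate block by column number it was 0.767. Without Control1 it was 0.222, and over all libraries left out in turn it ranged from 0.0409 to 0.330, with a difference of -12.5 to -11.8 points each time.

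**Figure D2:**
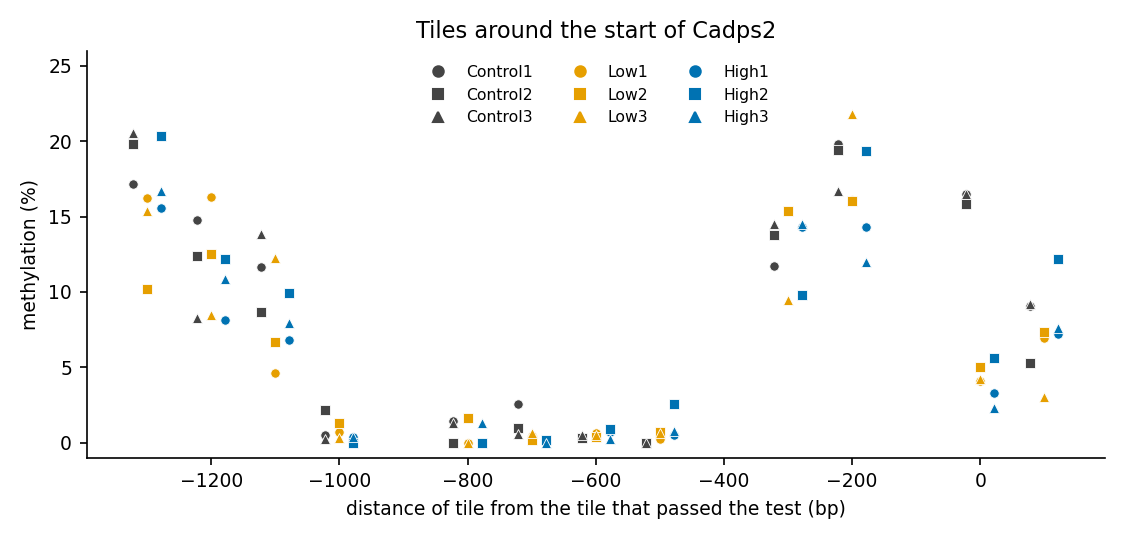
Methylation (%) of 12 tiles around the start of Cadps2 against their distance in bp from the tile that passed (0); each point is 1 library. At 0 the 3 controls lie between 15.8% and 16.5% and the 6 exposed libraries between 2.27% and 5.65%, while the groups overlap at most other tiles.

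Among the tiles with the smallest p that were higher in the exposed group, none passed, and the adjusted p ranged from 0.186 to 0.294. A tile in Msln, which encodes the surface protein mesothelin (chr17:25752401-25752500), stood at 58.2%, 56.2% and 55.4% in the controls and between 64.0% and 66.2% in the exposed libraries (difference 8.497 points, SE 0.78). A tile near Onecut1, a transcription factor gene of liver and pancreas (chr9:74863001-74863100, 1129.5 bp past the listed start), stood at 9.97%, 10% and 10.2% against 15.9% to 18.9%. The tiles abutting the Onecut1 tile differed in the same direction, by 2.22 and 5.97 points. Tiles in Thegl (chr5:77054501-77054600), in Hcn2, a gene of a pacemaker channel (chr10:79724601-79724700), and in L3mbtl4 (chr17:68576201-68576300) differed by 13.3, 9.49 and 10.1 points. The tile with the nearest end being that of Igsf3 (chr3:101494401-101494500, 31390.5 bp away) stood at 52.7%, 51.3% and 56.5% against 68.3% to 74.6%, a difference of 17.8 points. Groups did not overlap at any of these 6 tiles, and each kept an unadjusted p of at most 0.000135 by limma without Control1. The tiles were chosen for a small p in a fit that used these same libraries, which favours both traits. Neither trait is thus a separate check of the tiles.

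After the Cadps2 tile, the 5 lower tiles with the smallest p lay in or nearest to Prdm2, Ripk2, Slc35e1, Mir196a-1 and Dnah2. They were named after their values were seen, apart from Mir196a-1, which also has one of the largest differences and is described with those. The sequence of the Slc35e1 tile is shown above. Slc35e1 belongs to a family of nucleotide sugar transporters. Its tile stood at 18.2%, 15.5% and 15.1% in the controls, 5%, 3.66% and 1.82% in the low and 6.25%, 6.06% and 6.45% in the high libraries (difference -11.4 points, SE 1.24, adjusted p = 0.228). The tiles abutting it on both sides differed by -0.0418 and 0.193 points. A tile in Dnah2, an axonemal dynein gene (chr11:69471501-69471600), stood at 11.7%, 9.59% and 10.5% against 0% to 4.07%. Tiles 253540 bp from the nearest gene end, that of Prdm2 (chr4:142853801-142853900), and 145572 bp from that of Ripk2 (chr4:16309201-16309300), differed by -11.5 and -9.12 points. The Ripk2 tile is among the most methylated of those named, at 92.9% to 94.2% in controls.

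**Figure D3:**
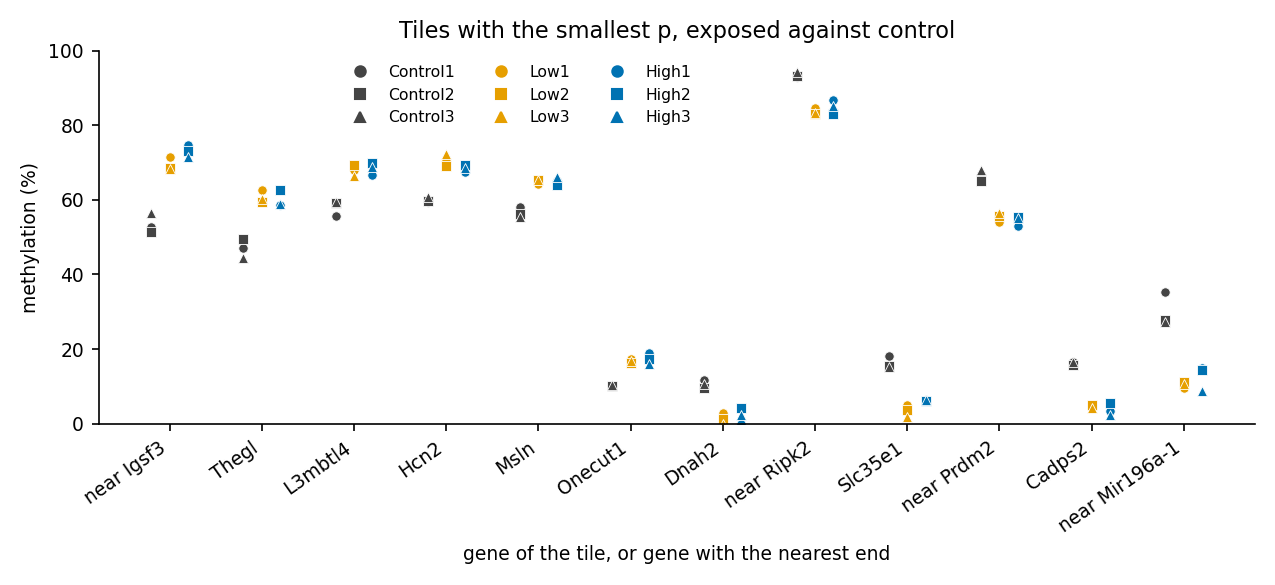
Methylation (%) of 12 tiles, the 6 with the smallest p that were higher (left) and the 6 that were lower (right) in the exposed group; each point is 1 library, offset by group. At every tile the 3 controls lie on 1 side of all 6 exposed libraries, which the choice by p favours. The Cadps2 tile alone passed the test over all tiles.

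The largest differences without overlap were near 20 points, and none passed (adjusted p of 0.312 to 0.929). Among the higher ones was a tile in Tnc, which encodes the matrix protein tenascin C (chr4:64017201-64017300), at 54.3%, 46.0% and 59.5% in the controls and 63.9% to 86.1% in the exposed libraries (22.4 points, SE 4.99, adjusted p = 0.767). The others were nearest to Slc16a7 (21.9 points), in the immunoglobulin kappa locus Igk (21.6), nearest to Cdh8 (21.4) and nearest to Olfr200-ps1 (20.8). Among the lower ones, a tile in Kif26b, a kinesin gene (chr1:178915301-178915400), stood at 70.5%, 61.3% and 69.6% against 36.1% to 53.0% (-21.3 points, SE 3.75, adjusted p = 0.696). The tile nearest to Mir196a-1, a microRNA gene of a Hox cluster (chr11:96263801-96263900), stood at 35.4%, 27.8% and 27.3% against 8.70% to 14.8% (-18.6 points, SE 2.18, adjusted p = 0.312). Tiles nearest to Dcaf8l, in Ccdc9b and in the B cell receptor gene Cd79b differed by -20.2, -19.3 and -18.5 points. The Ccdc9b difference was -12.3 points without Control3, whose value of 75% lay far above the other controls (55.2% and 52.6%).

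Over all tiles, 4239 (3%) had an unadjusted p under 0.05 and were higher in the exposed group, and 2939 (2.08%) were lower. Together these were 5.08% of the tiles, close to the 5% that such a threshold marks where nothing differs. Groups did not overlap at 1844 tiles (1.31%) that were higher and at 1372 (0.971%) that were lower. A difference of at least 10 points was found at 1385 higher and 622 lower tiles, and one of at least 20 points at 9 and 9. The median difference of a tile, without sign, was 1.29 points, against a median SD of 2.59 points among controls and 3.08 among exposed libraries. The higher share of 59.1% among tiles with p under 0.05 was 51.6% without Control1, 48.99% after quantile normalization and 26.98% after centring, which moved the median tile difference from 0.0865 to -1.02 points. Centring moved every tile of a library by the same amount, taken from its median over tiles with a mean of 20% to 80%. Weakly methylated tiles were moved too, so the low share after centring follows in part from the method. No conclusion on direction was drawn from it. The split thus depended on the scaling. Between the doses, high against low, limma gave 0 tiles past the threshold and 6652 (4.71%) with an unadjusted p under 0.05.

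Few neighbouring tiles shared a difference, as a description. Of 2540 tiles abutting a higher tile with p under 0.05, 6.30% also had p under 0.05 in the same direction; of 2648 abutting a lower one, 3.40% did. Over the abutting neighbours of all tiles the shares were 1.99% (higher) and 2.07% (lower). Only 5 runs of 3 such tiles with gaps of at most 500 bp were found, 1 higher and 4 lower. The higher run lay in Atn1, a transcriptional corepressor gene, and its 3 tiles averaged 58.3%, 59.9% and 63.6% in the controls and 64.5% to 73.1% in the exposed libraries. Lower runs lay in Cabin1 (32.9% ± 2.07 in controls, 26.8% ± 1.71 in exposed), at the start of the netrin receptor gene Unc5c (12.2% ± 2.91 and 8.52% ± 0.652, a difference of -3.71 points, or -2.13 without Control1) and at that of the splicing factor gene Hnrnpf (6.44% ± 0.782 and 4.06% ± 0.522). The fourth lay in Catsperg1, a gene of the sperm calcium channel (35.3% ± 1.90 and 28.6% ± 5.07), and its groups overlapped. These runs were found from the same values, so they carry no test.

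No gene start passed when tiles within 1000 bp of a start were averaged (0 of 13164, lowest adjusted p = 0.937 by limma, 590 or 4.48% with an unadjusted p under 0.05). Of these, 257 (1.95%) were higher and 333 (2.53%) lower, the opposite balance from single tiles over all positions. Among weakly methylated single tiles at gene starts, 476 with an unadjusted p under 0.05 were higher and 832 lower. Moderately methylated tiles at gene starts had 200 higher and 198 lower, and highly methylated ones 33 and 12. The named starts were Ano4, a membrane scramblase gene (25.4% ± 3.16 in controls, 36.2% ± 2.52 in exposed, 1 tile), Esp24 (34.4% ± 0.981 and 38.95% ± 1.47) and Slc37a2 (4.79% ± 1.58 and 9.09% ± 1.41). The lower ones were Ttc16 (9.87% ± 1.52 and 6.13% ± 0.793), the caveolar gene Cavin1 (7.60% ± 0.401 and 5.21% ± 0.746) and the kinase gene Brsk2, whose 11 tiles stood at 8.74% ± 0.481 and 6.82% ± 0.529. At all 6 starts the groups did not overlap, and each had an adjusted p of 0.999 by limma. They were chosen for a small p, which favours groups that lie apart. The share of such starts among all was not counted.

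Whole genes and fixed windows gave the same count. None of 14052 gene spans with 3 or more tiles passed (lowest adjusted p = 0.712 by limma, 683 or 4.86% with an unadjusted p under 0.05). Nalcn, the sodium leak channel, stood at 38.5%, 37.2% and 38.4% in controls and 42.8% to 47.3% in exposed libraries. Zfp14 and the actin regulator Wasf2 were higher by 2.45 and 4.30 points. Emx2os, antisense to the forebrain and urogenital regulator Emx2, stood at 19.6%, 20.3% and 19.7% against 16.1% to 17.98%. Slc35e1 was lower by 2.32 points over its 5 tiles, which include the tile above, and Dld, a subunit gene of the pyruvate dehydrogenase complex, by 2.58 points. None of 16892 windows of 10 kb passed (lowest adjusted p = 0.761, 853 or 5.05% with an unadjusted p under 0.05). The higher windows were nearest to Abo (chr2:26760001-26770000, 68.6% ± 1.12 in controls, 74.96% ± 1.30 in exposed), in Hdac5 and nearest to Glo1. The lower ones were nearest to Irf8, across Ppt2 and Prrt1, and at Hmga1b.

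Gene lists chosen for the tissues and the exposure held few tiles past an unadjusted p of 0.05, and none of the 16 lists had a tile past the adjusted threshold (lowest adjusted p = 0.696). The background over all tiles in a gene or near its start (116775) was 2.64% higher and 2.07% lower, with a median difference of 0.06 points. Among 190 tiles of maternal germline imprints 6 (3.16%) were higher and 5 (2.63%) lower. The tile at the start of Plagl1, an imprinted zinc finger gene, stood at 53.8%, 46.2% and 46.1% in controls and 28.7% to 42.5% in exposed libraries (-11.4 points, SE 3.31, adjusted p = 0.866). Its abutting tiles differed by -8.75 and -2.82 points. The tile of Peg13 stood at 51.6%, 43.8% and 47.8% against 50.9% to 63.1%, with overlap, and the Inpp5f tile shown above at 1.45%, 0% and 0% against 1.82% to 3.08%. The 13 tiles of paternal imprints held none with p under 0.05.

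Germline genes, which are silenced by methylation in somatic cells, had 2 higher (1.75%) and 2 lower (1.75%) of 114 tiles. The background was 2.64% higher and 2.07% lower. The tile at the start of Slc25a31, a testis ADP/ATP carrier, stood at 37.1%, 34.98% and 35.3% in controls and 23.7% to 29.6% in exposed libraries (-7.69 points, SE 1.38). The Hormad2 tile shown above, at the start of a meiotic chromosome axis gene, stood at 40.3%, 34.3% and 48.2% against 31.1% to 36.1%, with overlap. The tile abutting the Hormad2 tile differed by 5.02 points. A tile at the start of Smc1b was higher, at 50.4%, 60.6% and 53.4% against 56.5% to 63.1%, with overlap. The median difference of the germline tiles was 0.60 points, and -0.21 without Control1. None of 25 tiles of sperm protein genes had p under 0.05.

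Developmental regulators had tiles with an unadjusted p under 0.05 by limma in both directions, as had the background (2.64% higher and 2.07% lower). Of 227 trophoblast tiles 8 (3.52%) were higher and 5 (2.20%) lower. In Gata3, a trophoblast transcription factor, a tile 2050.5 bp upstream of the listed start (chr2:9880601-9880700) stood at 21.6%, 32.3% and 34.4% in controls and 39.8% to 62.3% in exposed libraries (20.2 points, SE 5.34, adjusted p = 0.848). Another tile of the same gene, 1849.5 bp past the start, was lower by 4.70 points, without overlap. Of 195 epiblast tiles 6 (3.08%) were higher and 5 (2.56%) lower. A tile of Zic5, a zinc finger gene of the neural plate, stood at 0%, 16.4% and 0% in Control1 to Control3 and 12.5% to 20.6% in the exposed libraries, with Control2 among the exposed. Another tile of Zic5 (chr14:122464301-122464400) went the other way, by -3.23 points without overlap. A tile at an end of Zic2 differed by -9.38 points, with overlap. Of 657 gastrulation tiles 9 (1.37%) were higher and 14 (2.13%) lower. A tile in Gata4, a heart and endoderm factor, stood at 40.4%, 48.5% and 41.1% against 29.9% to 38.02%, and one in its relative Gata6 at 19.23%, 25.5% and 28.1% against 29.1% to 37.9%. Of 353 Hox tiles, 7 (1.98%) were higher and 13 (3.68%) lower, with a median difference of -0.32 points, which was 0.05 without Control1. The Hoxd12 tile shown above stood at 38.3%, 35.5% and 39.4% against 24.1% to 31.6%. A tile of Hoxc4 (chr15:103034701-103034800) stood at 4.59%, 7.14% and 1.56% against 9.86% to 14.7%, and one of Hoxa10 at 26.1%, 28.5% and 24.7% against 29.9% to 34.4%.

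DEHP's metabolite is a ligand of PPAR receptors, which control fatty acid oxidation. Of 218 tiles of PPAR targets and fatty acid oxidation genes, 5 (2.29%) were higher and 3 (1.38%) lower. The background was 2.64% and 2.07%. A tile in Ppard, which encodes a PPAR, stood at 64.6%, 63.0% and 73.0% in controls and 76.0% to 84.1% in exposed libraries (12.4 points, SE 2.71, adjusted p = 0.763). A tile in Cpt1a, the gene of the carnitine step of mitochondrial fatty acid uptake, stood at 86.9%, 88.0% and 91.0% against 92.0% to 94.9%. The tile shared by Pex11a, a peroxisome division gene, and Wdr93 stood at 16.7%, 17.3% and 17.8% against 5.62% to 13.8%. Of 213 tiles of steroid synthesis and hormone receptor genes 8 (3.76%) were higher and 3 (1.41%) lower. Thra, Fshr and Esrrb were higher at the tiles with the smallest p. Of 185 retinoic acid tiles 5 (2.70%) were higher and 6 (3.24%) lower. A tile in Cyp26b1, which degrades retinoic acid, stood at 7.04%, 14.0% and 13.5% against 14.9% to 20.6%.

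Genes that write, erase or read chromatin marks also had such tiles in both directions, beside a background of 2.64% higher and 2.07% lower. Of 186 tiles of DNA methylation enzyme genes, 2 (1.08%) were higher and 8 (4.30%) lower. The tiles with the smallest p were lower in Tet3 (1.82% to 2.99% in controls, 0% to 1.20% in exposed), in the methyltransferase gene Dnmt3a (-6.00 points) and in the demethylating oxygenase gene Tet1 (-7.37 points). Of 327 Polycomb tiles 5 (1.53%) were higher and 9 (2.75%) lower. A tile in Phf1 stood at 72.7%, 71.7% and 75.9% against 81.5% to 93.3% (13.8 points, SE 2.56, adjusted p = 0.697), and one in Suz12 at 1.43%, 1.40% and 2.00% against 0% in all exposed libraries. Insulin and growth factor genes had 7 and 7 of 310 tiles (2.26% each) and clustered protocadherins 4 and 4 of 105 (3.81% each). Ribosomal protein genes had 5 (1.40%) and 4 (1.12%) of 356. Of 287 gene starts in the lists, 8 (2.79%) had an unadjusted p under 0.05, against 4.48% of all gene starts. The 3 higher (1.05%, against 1.95%) were Acaa1a, Phf19 and Igfbp5, and the 5 lower (1.74%, against 2.53%) were Rara, Cpt1c, Pex11a, Eed and Rpl35, named for their values. Without Control1, Rara, Pex11a and Rpl35 kept a p under 0.05 and the other 5 did not. The start of Rara, a retinoic acid receptor gene, stood at 15.7% ± 0.195 in controls and 14.2% ± 0.717 in exposed libraries (adjusted p = 0.999).

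**Figure D4:**
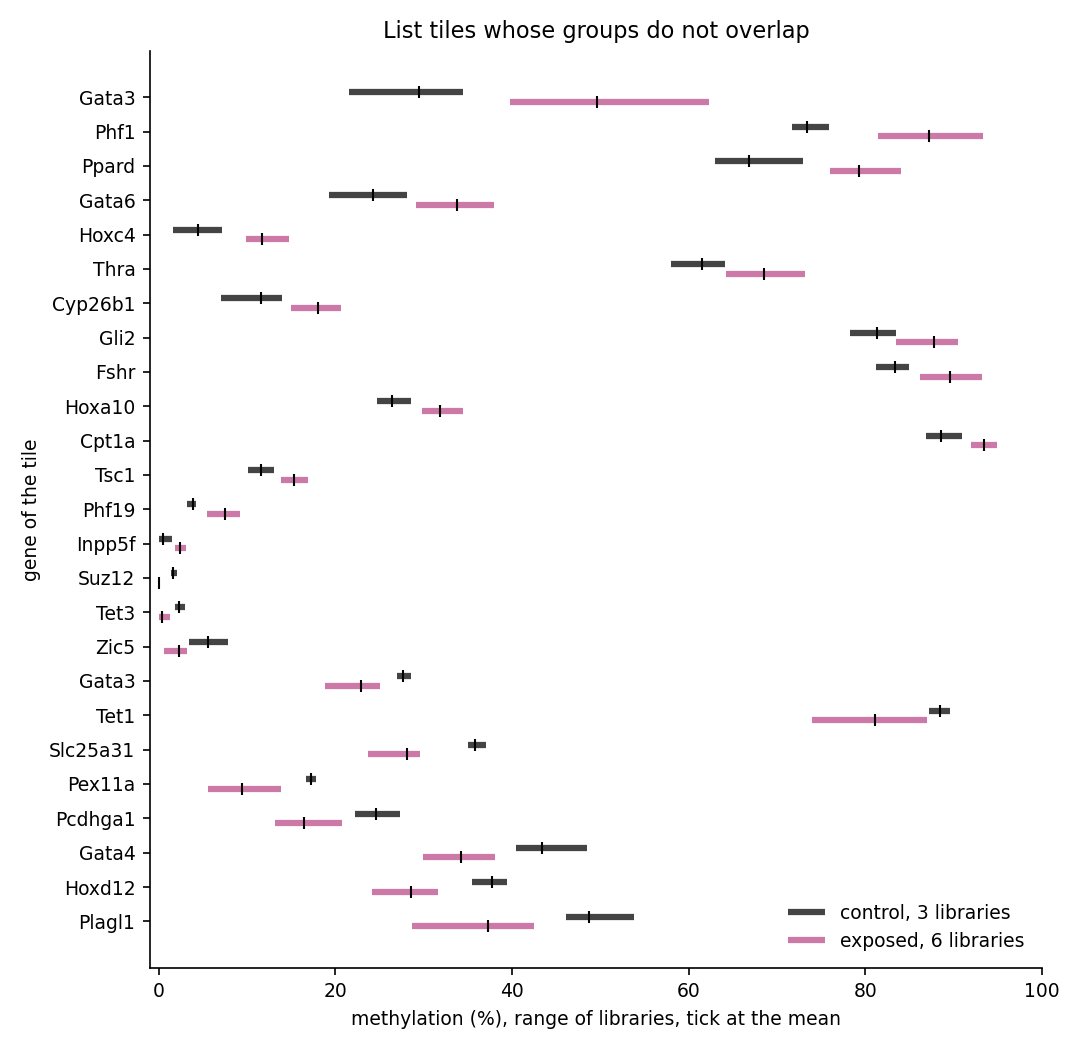
Range of methylation (%) over the 3 control and the 6 exposed libraries, with a tick at each mean, for the 25 named list tiles whose groups do not overlap, sorted by difference. Bars of the 2 groups lie apart by construction; in Suz12 all exposed libraries are at 0%. No tile shown passed the test over all tiles.

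How far the results depend on Control1 was read against the other 8 libraries. Control1 differed from the others by a mean of 4.59 points per tile, where the other libraries had means of 4.05 to 4.40. It had the lowest library weight in limma, 0.692, against 0.848 to 1.24. It was the sole lowest library at 14.6% of tiles, against 7.49% to 11.9% for the others, and the sole highest at 11.8%, within their range of 9.40% to 12.7%. Of 7178 tiles with p under 0.05, 49.6% kept that p and the same sign without Control1, against 58.7% without Control2 and 56.6% without Control3. Without an exposed library 74.3% to 75.1% did, a group that loses 1 of 6 and not 1 of 3. Without Control1, 3511 tiles were higher and 3297 lower, and the count that passed was 0. The number of tiles with p under 0.05 was thus 6808 without Control1, against 7178 with all libraries. It was 8159 without Control2, 8186 without Control3 and 7005 to 7417 without an exposed library. So it fell without Control1 and rose without either other control. Higher tiles made up 51.6% without Control1, 56.2% without Control2 and 61.8% without Control3, against 59.1% with all libraries.

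A further check, added after the values were seen, chose tiles with 2 controls and read the third. At 6808 tiles with p under 0.05 without Control1, the median difference between exposed and the 2 controls used was 6.93 points, and Control1 differed from the exposed mean by a median of 1.43 points in that direction, or 20.7% of it. Held out in the same way, Control2 gave 17.03% and Control3 15.1%. The held-out control was set against the same 6 exposed libraries that had chosen the tiles, so the share lies above 0 even where nothing differs. For libraries that vary equally and independently, and without bounds, it would then be 25%. Percentages are bounded, and the median SD was 2.59 points among controls and 3.08 among exposed libraries. All 3 shares lay below 25%, but that value may not hold for these tiles, so no conclusion was drawn from it.

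**Figure D5:**
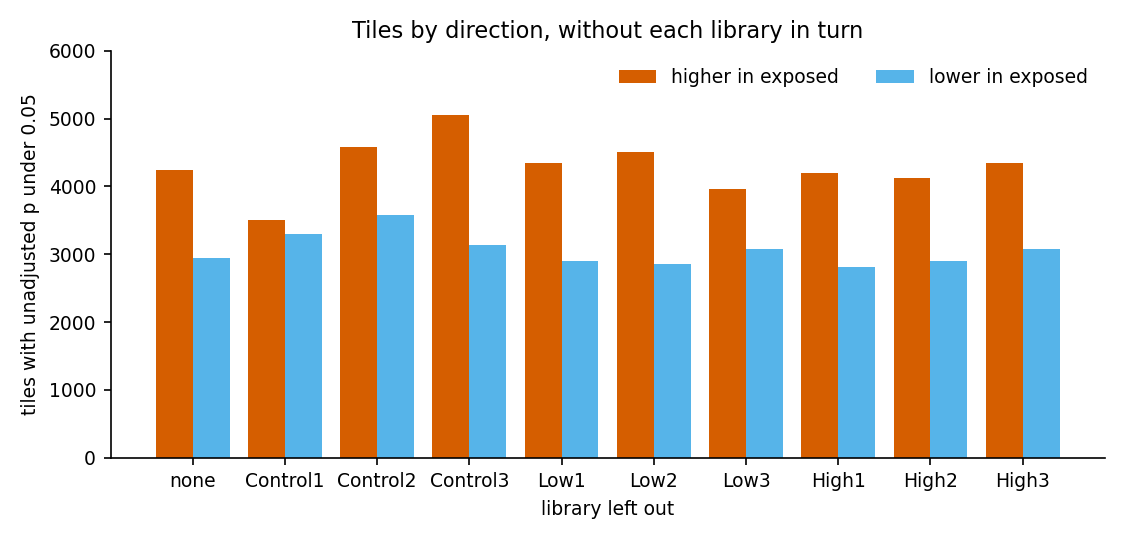
Number of tiles with an unadjusted p under 0.05 that were higher or lower in the exposed group, with all libraries and without each library in turn. Without Control1 the bars are nearly equal (3511 and 3297), whereas higher tiles lead by 887 or more without any other library.

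Other libraries decided single calls. Without Control2 a tile in Dcbld2, a neuropilin-like receptor gene (chr16:58408501-58408600), passed with an adjusted p of 9.42e-04. It stood at 47.6%, 10.7% and 46.2% in Control1 to Control3 and between 8.62% and 12.1% in the exposed libraries, so that Control2 lay among the exposed. The start of Dcbld2 (and of 4930461C15Rik, which shares its tiles), its span and its window passed in the same way. The start of Fgf9, a growth factor gene, stood at 2.88%, 8.65% and 3.22% in the controls and 8.20% to 10.2% in the exposed libraries, and passed without Control2 (adjusted p = 0.0219). Without High3, tiles in Osbpl6 and Myadm passed beside the Cadps2 tile (adjusted p = 0.0409). The Osbpl6 tile stood at 46.4%, 50% and 47.6% in controls, 62.4% to 65.3% in 5 exposed libraries and 49.3% in High3. The start of Gm20110 passed with the doses as separate groups (adjusted p = 0.0471), at 75.5%, 76.1% and 78.9% against 84.1% to 89.2%. These features were named after their values were seen.

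Expression of the genes nearest to the tiles was read in the deposited expression table, which holds 2 libraries per dose that are not the methylation libraries and whose tissue is not named. Cadps2 stood at 5.53 and 5.84 CPM in the controls, 4.13 and 5.55 CPM in the low and 5.11 and 4.24 CPM in the high libraries, so the groups overlapped. Slc35e1 stood at 57.2 and 57.4 CPM in controls and 58.6 to 61.5 CPM in the 4 exposed libraries, all above both controls. Groups also lay apart at other genes read, in both directions. Rpl9 stood at 517 and 573 CPM in controls against 600 to 612 CPM in exposed libraries. Gli2 stood at 42.7 and 39.2 CPM against 28.4 to 38.6 CPM. The share of all genes with such a separation was not counted. Whether expression and methylation are linked at these genes was not tested.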

How the data were processed

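The members, gene lists and tests were chosen with earlier results of these data known. The authors deposited a percent methylation per tile of 100 bp. Coverage does not stand beside it, so depth is unknown and single tiles have no interval. Per the file headers, the expression values are CPM; they were only read. The submitters' processing notes list edgeR, SAMtools, methylKit, Bismark, Trim Galore, Bowtie2, TopHat and Bowtie 0.12.2 with no role given, and the builds mm10 and mm8. Column names matched a treatment and a number, so columns were mapped to groups only.

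The exposed group (6 libraries) was compared with control (3) with limma 3.58.1 in R 4.3.3 (no trend, 7 residual degrees of freedom) on the percentages as deposited, adjusted by Benjamini-Hochberg over all tiles, at a threshold of 0.05. Gene starts (tiles within 1000 bp), spans and 10 kb windows (3 or more tiles each) were tested on mean percentages. Library means were compared by exact permutation. Gene starts come from a RefSeq table for 27025 genes, with none on chromosome 18, and other gene ends from 49939 gene spans; genes that overlap share tiles. On simulated tiles of 30% to 70% methylation, limma recovered 2% of differences of 10 points, 12% of 20, 56% of 30 and 82% of 40, and called 6 unchanged tiles.

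Tiles were named by rule: those that pass with groups apart; the 6 smallest p values of a direction in which no tile passes; the 5 per direction with the largest difference without overlap; 3 per gene list; and 3 starts, spans or windows per direction. Predicted genes were left out. Lower tiles named by p, and features called under another setting, were added after their values were seen. Alternatives were another scale, centring, quantile normalization, library weights, variance models, doses as separate groups, a block by column number, other distances and window sizes, and each library left out in turn. Same-numbered columns of different groups did not deviate together.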

Additional observations from a re-analysis of the deposited data

How the results depend on the processing

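No coverage stands beside the percentages, so tiles of shallow coverage cannot be set apart, and 3 controls against 6 exposed libraries allow no exact p below 0.0238. The count of 1 tile that passed was 0 on the log-ratio scale, after centring, after quantile normalization, with the doses as separate groups and with a replicate block by column number. It was also 0 among tiles with a mean of 10% to 90%, a range that leaves out the Cadps2 tile (mean 8.15%) before the test. Same-numbered columns correlated between -0.0329 and 0.0286 in their deviations, and other columns of different groups between -0.0311 and 0.0275. This gave no sign that the numbers pair the libraries. Noise of single tiles can hide a weak pairing, so pairing is not excluded. Leaving out each library gave 0 to 3 tiles, 0 to 3 gene starts, 0 to 1 gene span and 0 to 1 window of 10 kb, against 0 for each of the last 3 with all libraries. With the doses as separate groups 1 gene start passed. The share of higher tiles among those with an unadjusted p under 0.05 was 26.98% after centring and 48.99% after quantile normalization, against 59.1%. The difference of library means over all tiles was 0.319 points and that of medians -0.327. Moderately methylated gene starts differed by 0.0222 points, and by -0.223 to 0.147 with each library left out. The X chromosome differed by -0.476 to 1.02 points in the same way. The median tile difference of gene lists moved by more than its spread in 12 left-out fits and by less in 132. Apart from the shift of all tiles that centring makes, the cause of each of these changes was not tested.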
